A study of Mus musculus with 4 samples.

Results

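The subject is 10 genes of leukotriene and prostaglandin synthesis in Langerhans cells, dendritic cells that live in the epidermis, taken from the ears of mice. They are 10 of the 55487 genes in the count table and were chosen by gene symbol, with 1 row per symbol. Imiquimod-treated ears gave 2 libraries and Vaseline-treated ears, the controls, gave 2. All mice were wild type, both groups came from ear, and the labels used here give no age, dose, time or sorting gate. Imiquimod activates Toll-like receptor 7, and its topical use on mouse skin is a model of psoriasis-like inflammation. Nothing states that replicates are different animals, and p-values therefore measure only the spread between these libraries, which may be technical. The labels' sample codes share their letters in both Vaseline libraries and differ from these, and from each other, in the imiquimod libraries; what the codes stand for is not stated, and should they be batches, no comparison here could separate these from treatment.

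Leukotrienes and prostaglandins are short-lived lipid mediators made from arachidonic acid. Cytosolic phospholipase A2 releases the fatty acid from membranes, and then the pathway divides. In one branch 5-lipoxygenase, helped by its activating protein, makes leukotriene A4, which Lta4h turns into the neutrophil attractant leukotriene B4 or Ltc4s into the cysteinyl leukotriene C4. In the other branch the cyclooxygenases Ptgs1 and Ptgs2 make prostaglandin H2, which synthases such as Ptges, Ptges3 and Hpgds turn into prostaglandins E2 and D2. Ptgs1 is known as the steadily expressed cyclooxygenase and Ptgs2 as the one induced by inflammatory signals, and both leukotrienes and prostaglandin E2 are known to act on the migration of skin dendritic cells.

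Library totals ran from 14902782 to 20690182 counts with imiquimod and from 41998172 to 76028955 with Vaseline. Levels are given as CPM on library totals scaled by TMM (trimmed mean of M values), and fold changes as log2(imiquimod/Vaseline) with their standard error (SE). Langerhans cell markers were found in each library, and a list of 16 summed to 9793 and 8189 CPM in the imiquimod libraries, against 26081 and 68418 CPM in the Vaseline libraries. Cd207, which encodes langerin, had 1199 and 573 CPM with imiquimod, against 2250 and 6869 CPM with Vaseline. Markers of keratinocytes, the main cells of the epidermis, were also abundant, at 22924 and 5920.5 CPM with imiquimod and 22782 and 26286 CPM with Vaseline over 12 genes. In such bulk samples fewer cells of a type and less RNA per cell cannot be told apart.

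Of the 10 genes, 8 were lower in both imiquimod libraries than in both Vaseline libraries, namely Pla2g4a, the 4 leukotriene genes, Ptgs1, Ptges3 and Hpgds, while Ptgs2 and Ptges overlapped between the groups; with library sizes set by Langerhans cell markers 6 of these 8 had a positive fold change, all but Alox5 and Ptgs1. None of the 10 was higher in both imiquimod libraries, where 30.5% of all tested genes and 5.45% of those well above background were. Groups lay apart in the lower direction for 20.9% of all 39439 tested genes, but for 50.6% of the 14468 tested genes that lay well above background. That background is the median level per exonic kilobase of 1455 olfactory and vomeronasal receptor genes in the same library, and well above means a mean ratio to it of at least 5 over the 4 libraries. The background was lowest in Vaseline 2, at 0.0938 CPM per kilobase before TMM scaling, against 0.376 to 1.29 in the other libraries, so that library weighs most in the mean and genes high with Vaseline pass more easily. The choice of these genes therefore favours the lower direction, and their shares and medians are not a neutral comparison for the 10. All 10 genes met that bound, with mean ratios from 21.3 for Pla2g4a to 315 for Alox5ap. The median log2 fold change of the 10 was -1.56, against 0.41 for all tested genes and -0.69 for those well above background. Fold changes were negative for 80% of the members, against 39.4% of all tested genes and 83.2% of those well above background.

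No member passed the edgeR quasi-likelihood test at an adjusted p under 0.05 (Benjamini-Hochberg over all tested genes), a threshold that 0.2% of tested genes passed, 0.0634% as higher and 0.137% as lower. At an unadjusted p under 0.05, 0 of 10 were higher with imiquimod, against 8.63% of all tested genes, and 6 of 10 lower, where 5.1% of all tested genes and 13.4% of those well above background, chosen as described, were lower. DESeq2 on the same genes called 5 of the 10 lower, Alox5, Alox5ap, Ltc4s, Ptgs1 and Hpgds, against 1.69% of tested genes, and called 0 higher, against 0.0152%. All 10 had at least 230 counts in each library, the least being Ltc4s in imiquimod 1, with an exact 95% Poisson interval of 201 to 262 that covers counting error only.

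**Figure D1:**
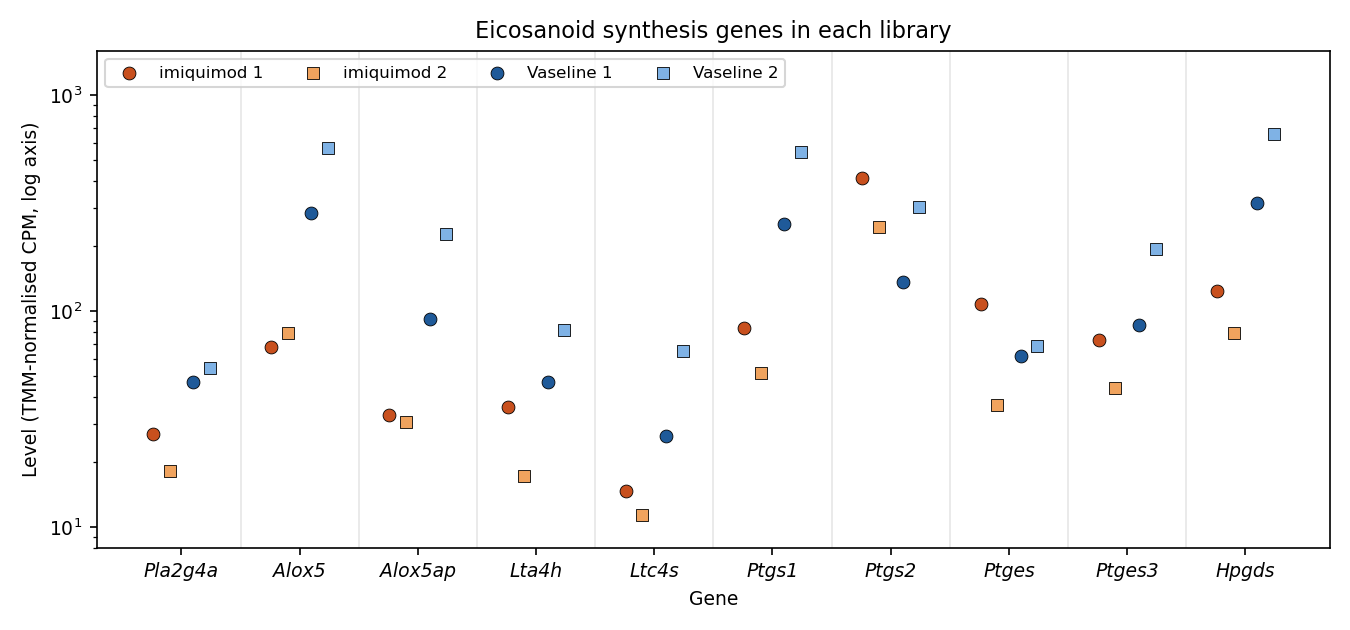
Level of each of the 10 genes in each library, as TMM-normalised CPM on a log axis; orange points are the 2 imiquimod libraries and blue points the 2 Vaseline libraries. In 8 genes both orange points lie below both blue ones, and in Ptgs2 and Ptges the colours overlap.

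Pla2g4a (ENSMUSG00000056220; GRCm38 chromosome 1, 149829618 to 149961290, minus strand) encodes the cytosolic phospholipase A2 that feeds both branches. It had 27.0 and 18.2 CPM in the imiquimod libraries, against 46.9 and 54.6 CPM in the Vaseline libraries. Both imiquimod values lay under both Vaseline values, but its log2 fold change of -1.18 (SE 0.63) missed the threshold (adjusted p = 0.379 by edgeR quasi-likelihood). Per exonic kilobase it was the lowest of the 10 transcripts in 3 libraries, and in imiquimod 2 it lay next to Lta4h at the bottom, with 2.85 CPM per kilobase, against 2.81 for Lta4h.

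Among the leukotriene genes, Alox5 (ENSMUSG00000025701; chromosome 6, 116410077 to 116461178, minus strand), which encodes 5-lipoxygenase, had 67.8 and 78.6 CPM with imiquimod, against 283 and 565 CPM with Vaseline. The imiquimod libraries lay close together and both far under the Vaseline pair, which differed from each other. The group means were 73.2 ± 7.60 CPM with imiquimod and 424 ± 199 CPM with Vaseline (SD, n = 2 each), 5.79-fold lower with imiquimod. Its log2 fold change was -2.53, with an SE of 0.92 (adjusted p = 0.237 by edgeR quasi-likelihood, 0.0017 by DESeq2).

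Alox5ap (ENSMUSG00000060063; chromosome 5, 149264767 to 149288153, plus strand) encodes FLAP, the membrane protein that presents arachidonic acid to 5-lipoxygenase. It had 33.0 and 30.5 CPM in the imiquimod libraries, against 91.9 and 227 CPM in the Vaseline libraries. The imiquimod pair was again close together and below both controls, and the log2 fold change was -2.33, with an SE of 0.75 (adjusted p = 0.171 by edgeR quasi-likelihood, 0.00586 by DESeq2). Per exonic kilobase Alox5 and Alox5ap stood at nearly equal levels: the ratio of Alox5 to Alox5ap was 0.71 and 0.89 with imiquimod and 1.07 and 0.86 with Vaseline, and the groups overlapped.

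The next 2 enzymes compete for leukotriene A4. Ltc4s (ENSMUSG00000020377; chromosome 11, 50236461 to 50238616, minus strand), the leukotriene C4 synthase, had 14.7 and 11.3 CPM with imiquimod, against 26.3 and 65.3 CPM with Vaseline. Its groups lay apart and its log2 fold change was -1.83, with an SE of 0.63 (adjusted p = 0.212 by edgeR quasi-likelihood, 0.0398 by DESeq2). Lta4h (ENSMUSG00000015889; chromosome 10, 93453411 to 93484875, plus strand), the leukotriene A4 hydrolase, had 36.0 and 17.2 CPM with imiquimod, against 46.6 and 81.6 CPM with Vaseline. Here imiquimod 1 came near Vaseline 1, and the log2 fold change of -1.29 (SE 0.65) missed the threshold (adjusted p = 0.362 by edgeR quasi-likelihood). Per exonic kilobase Ltc4s exceeded Lta4h in each library, 2.45-fold and 3.96-fold with imiquimod and 3.39-fold and 4.81-fold with Vaseline, with no separation of the groups.

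Antisense genes cover 26.4% of the exonic bases of Ltc4s and 13.3% of those of Alox5ap, and the strand setting of the counting is not given in the sources used here. The antisense gene at Ltc4s, Gm26542, held 48 and 69 counts in the imiquimod libraries and 104 and 144 in the Vaseline libraries. The one at Alox5ap, Gm19719, held 100 and 232 counts with imiquimod and 414 and 361 with Vaseline. Ltc4s itself held 230 and 388 counts with imiquimod and 1055 and 2971 with Vaseline, and Alox5ap 518 and 1047 with imiquimod and 3692 and 10351 with Vaseline.

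The 2 cyclooxygenases had fold changes of opposite sign. Ptgs1 (ENSMUSG00000047250; chromosome 2, 36230426 to 36252272, plus strand) had 83.1 and 51.5 CPM in the imiquimod libraries, against 252 and 543 CPM in the Vaseline libraries. Its groups lay well apart, with means of 67.3 ± 22.3 CPM with imiquimod and 397 ± 206 CPM with Vaseline (SD, n = 2 each), 5.91-fold lower with imiquimod. Its log2 fold change of -2.57 (SE 0.91) was the most negative of the 10, and its adjusted p was 0.224 in edgeR and 0.0029 in DESeq2.

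Ptgs2 (ENSMUSG00000032487; chromosome 1, 150100031 to 150108227, plus strand) had 413 and 244 CPM with imiquimod, against 137 and 303 CPM with Vaseline. Imiquimod 1 was the highest library and Vaseline 1 the lowest, and the other 2 lay between them in an order opposite to the groups. The log2 fold change of 0.58 (SE 0.89) missed the threshold (adjusted p = 0.710 by edgeR quasi-likelihood). With 1 library left out it was 0.075 without imiquimod 1, 0.92 without imiquimod 2, 0.0064 without Vaseline 1 and 1.25 without Vaseline 2, so its size rested on which libraries were kept.

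Within a library, where scaling plays no part, the 2 cyclooxygenases differed more between the groups than the other pairs of members examined. Those pairs were chosen after the counts had been seen, and none set Ptgs2 against Alox5, Alox5ap or Hpgds. Per exonic kilobase the ratio of Ptgs2 to Ptgs1 was 4.22 and 4.02 in the imiquimod libraries, against 0.46 and 0.47 in the Vaseline libraries. Ptgs2 was thus the more abundant cyclooxygenase transcript in both imiquimod libraries and Ptgs1 in both Vaseline libraries. The mean ratios were 4.12 ± 0.14 with imiquimod and 0.466 ± 0.00928 with Vaseline (SD, n = 2 each), an 8.84-fold difference that far exceeded the spread within groups. A ratio shows unequal change of the 2 genes and does not say which of them moved, and no test was run on it. The contrast was not particular to the cyclooxygenases. By level per exonic kilobase, Ptgs2 also stood above Alox5, Alox5ap and Hpgds in both imiquimod libraries and below them in both Vaseline libraries. Ptgs2 had 90.2 and 53.3 CPM per kilobase with imiquimod, against 29.8 and 66.1 with Vaseline. Alox5 had 16.5 and 19.1 with imiquimod, against 69.0 and 138 with Vaseline. Per exonic kilobase Alox5 stood at 0.77 and 1.44 times Ptgs1 with imiquimod and at 1.06 and 0.98 times with Vaseline.

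The windows before the starts of both cyclooxygenase genes are shown because these paralogs differed, together with those of Alox5 and Hpgds, which were lower alongside Ptgs1. Each is the 250 bases before the RefSeq gene start on GRCm38.p6, 5′ to 3′ on the gene's strand. Capitals mark GAGGAA, a core recognised by the myeloid factor PU.1, and, in Ptgs2, TTGCGCAA, the palindrome of the C/EBP family, which is known to act at this gene.
Ptgs1, chr2:36230176-36230425, plus strand: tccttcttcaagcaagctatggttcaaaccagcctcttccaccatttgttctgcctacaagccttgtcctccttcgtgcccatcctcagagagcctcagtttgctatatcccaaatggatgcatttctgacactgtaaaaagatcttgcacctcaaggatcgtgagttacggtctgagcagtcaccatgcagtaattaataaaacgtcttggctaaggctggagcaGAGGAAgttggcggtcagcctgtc
Ptgs2, chr1:150099781-150100030, plus strand: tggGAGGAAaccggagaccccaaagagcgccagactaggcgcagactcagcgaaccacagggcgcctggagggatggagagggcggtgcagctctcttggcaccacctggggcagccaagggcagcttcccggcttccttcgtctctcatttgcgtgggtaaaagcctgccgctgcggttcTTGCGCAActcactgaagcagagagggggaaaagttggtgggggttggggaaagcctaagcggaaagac
Alox5, chr6:116461179-116461428, minus strand: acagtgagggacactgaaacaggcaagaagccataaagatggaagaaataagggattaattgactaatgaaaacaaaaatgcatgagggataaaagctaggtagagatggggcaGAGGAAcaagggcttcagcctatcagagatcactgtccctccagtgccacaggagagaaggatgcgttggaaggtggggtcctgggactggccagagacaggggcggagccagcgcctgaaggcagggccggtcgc
Hpgds, chr6:65144731-65144980, minus strand: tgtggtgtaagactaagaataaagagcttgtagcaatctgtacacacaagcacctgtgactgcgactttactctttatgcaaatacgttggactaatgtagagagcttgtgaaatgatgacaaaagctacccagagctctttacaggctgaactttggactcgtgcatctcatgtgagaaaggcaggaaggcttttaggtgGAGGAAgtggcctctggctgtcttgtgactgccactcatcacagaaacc

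GAGGAA lay 24 bases before the start in Ptgs1, 49 in Hpgds, 136 in Alox5 and 247 in Ptgs2, on the gene's strand in each. Searched on both strands, it was present in 6 of the 9 members with a window, against 23.1% of 27025 genes. In the remaining carriers, Lta4h and Ptges, it lay on the opposite strand, and the windows of Ltc4s, Pla2g4a and Ptges3 had none. TTGCGCAA, 69 bases before the start of Ptgs2, was present in 1 of the 9, against 0.17% of genes. Of the other letters searched, the GC box GGGCGG was in 4 of the 9, against 32.9%, while TATAAA and the AP-1 letters TGANTCA were in none of the 9, against 13.0% and 6.87%. These motifs were chosen after the windows had been read, and a match of letters is a description, not a site. Alox5ap had no window in the table.

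The synthases that act on prostaglandin H2 differed among themselves. Hpgds (ENSMUSG00000029919; chromosome 6, 65117293 to 65144908, minus strand), the haematopoietic prostaglandin D synthase, had 124 and 79.1 CPM in the imiquimod libraries, against 314 and 660 CPM in the Vaseline libraries. Both imiquimod libraries were lower, and the log2 fold change was -2.26, with an SE of 0.95 (adjusted p = 0.304 by edgeR quasi-likelihood, 0.0073 by DESeq2). Its ratio to Ptgs1 per exonic kilobase was 0.90 and 0.93 with imiquimod and 0.75 and 0.73 with Vaseline, with groups apart and means of 0.92 ± 0.018 with imiquimod and 0.74 ± 0.014 with Vaseline (SD, n = 2 each).

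Ptges (ENSMUSG00000050737; chromosome 2, 30889471 to 30929863, minus strand), the inducible microsomal prostaglandin E synthase that works with Ptgs2, had 107 and 36.7 CPM with imiquimod, against 61.5 and 68.8 CPM with Vaseline. The imiquimod libraries stood on either side of the controls. Its log2 fold change of 0.14 (SE 0.67, adjusted p = 0.915 by edgeR quasi-likelihood) changed sign in 5 of 15 alternative settings that did not scale to Langerhans cell markers, and was -0.90 without imiquimod 1. Relative to Hpgds, the ratio of Ptges per exonic kilobase was 1.41 and 0.76 with imiquimod, against 0.32 and 0.17 with Vaseline, with groups apart.

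Ptges3 (ENSMUSG00000071072; chromosome 10, 128058954 to 128077272, plus strand) encodes p23, a cytosolic prostaglandin E synthase that is also a co-chaperone of HSP90. It had 73.3 and 44.0 CPM in the imiquimod libraries, against 85.7 and 193 CPM in the Vaseline libraries. Imiquimod 1 came near Vaseline 1, and the log2 fold change of -1.25 (SE 0.73) missed the threshold (adjusted p = 0.402 by edgeR quasi-likelihood).

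The make-up of the set, also looked at after the counts were known, can be read within each library as a share of the summed level per exonic kilobase. Ptgs2 made up 35.3% and 32.2% of it in the imiquimod libraries, against 8.0% and 8.29% in the Vaseline libraries. Ptgs1 made up 8.37% and 8.01% with imiquimod, against 17.4% and 17.5% with Vaseline. The 4 leukotriene genes together made up 23.5% and 33.0% with imiquimod, against 44.9% and 47.1% with Vaseline. In order of level, Ptgs2 stood first in both imiquimod libraries and sixth in both Vaseline libraries, where Alox5, Ptgs1 and Alox5ap held the first places at 64.8 to 160 CPM per kilobase. Those 3 lay between 64.8 and 69.0 CPM per kilobase in Vaseline 1 and did not keep 1 order across both controls.

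**Figure D2:**
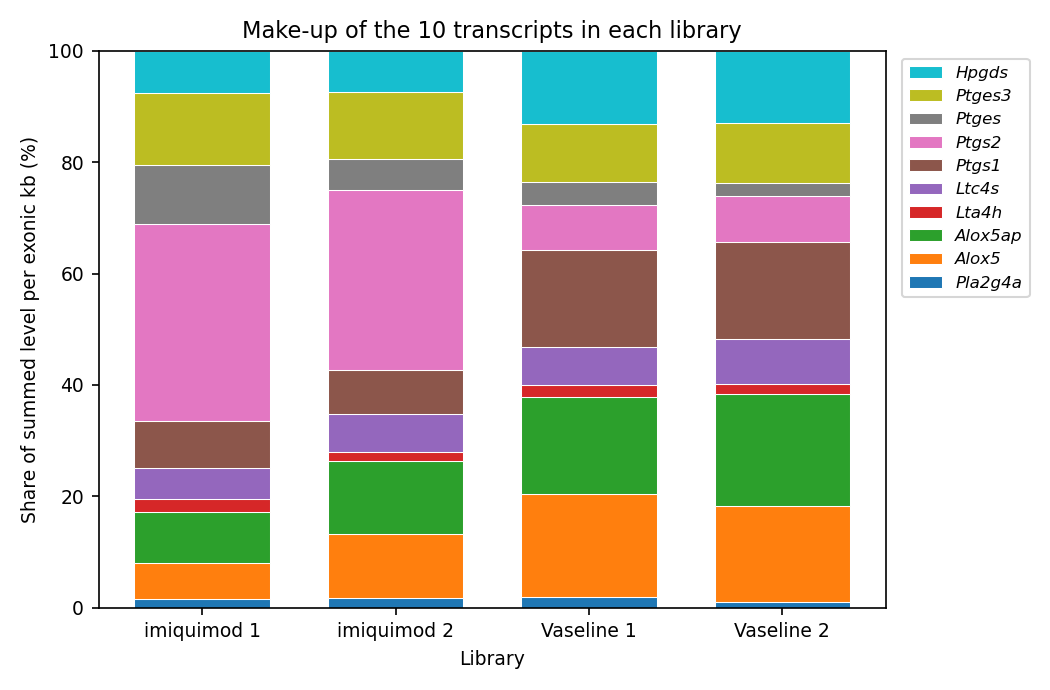
Share of each transcript in the summed level per exonic kilobase of the 10, in percent, with 1 bar per library and the imiquimod libraries on the left. Ptgs2 takes 35.3% and 32.2% of the imiquimod bars and 8.0% and 8.29% of the Vaseline bars.

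Relative to Langerhans cell markers the genes divided differently. The 16 markers, each lower in both imiquimod libraries, had a median log2 fold change of -2.13, so levels were also taken per 1000 counts of these markers. Cd74, H2-Aa, H2-Ab1, H2-Eb1 and Mfge8 made up most of the marker counts in each library. Cd74 alone made up 33.0% and 31.0% with imiquimod and 35.6% and 32.7% with Vaseline. The scale thus rests mainly on these genes and is not a measure of the number of Langerhans cells. On that scale Hpgds had 12.7 and 9.66 counts with imiquimod and 12.05 and 9.64 with Vaseline, and Alox5ap had 3.37 and 3.72 with imiquimod and 3.53 and 3.32 with Vaseline. Alox5 and Ptgs1 overlapped between the groups as well, so the 4 members with the most negative fold changes overlapped once set against the Langerhans cell markers.

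Ptgs2 stood apart from the other members on this scale. It had 42.2 and 29.8 counts per 1000 marker counts in the imiquimod libraries, against 5.23 and 4.42 in the Vaseline libraries. That was 7.45-fold higher on the means. Ptges had 10.96 and 4.48 counts with imiquimod, against 2.36 and 1.006 with Vaseline. Ltc4s, Lta4h, Ptges3 and Pla2g4a were also above their controls, by 1.47-fold to 2.11-fold on the means. With library sizes set by the markers, edgeR quasi-likelihood gave Ptgs2 2.90 on the log2 scale (SE 0.66, adjusted p = 0.00881) and Ptges 2.20 (SE 0.77, adjusted p = 0.0392), so 2 of 10 members were called higher. That scaling calls 29.9% of all tested genes higher, so the members' count lies within that background.

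**Figure D3:**
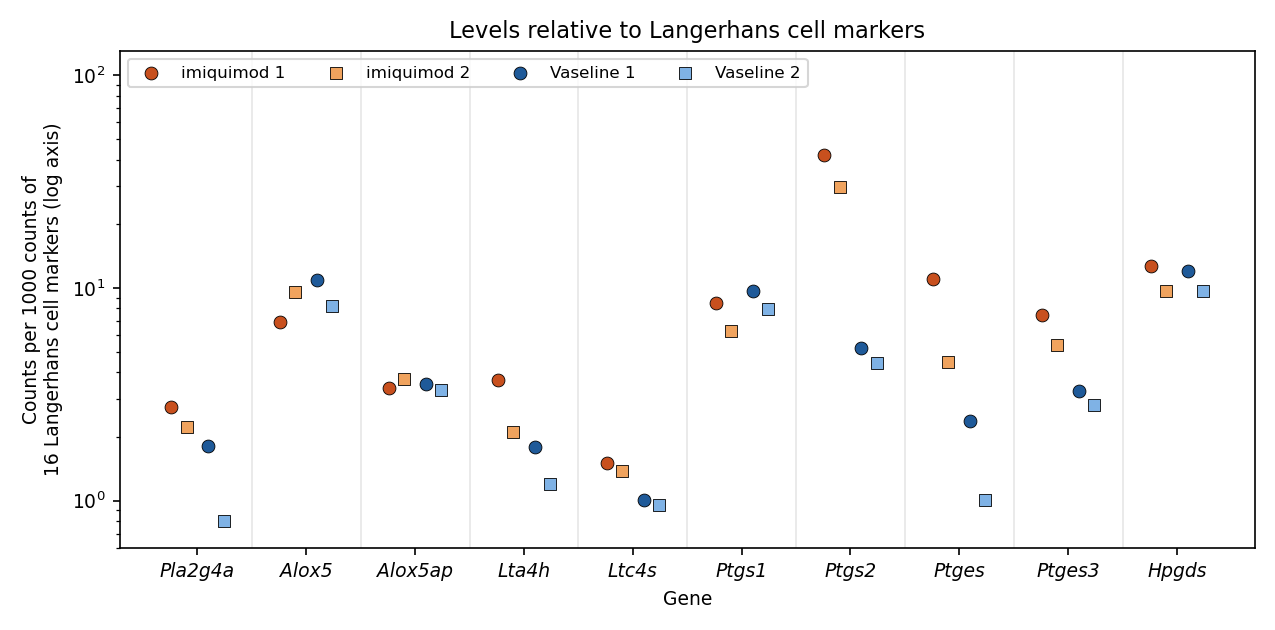
Counts of each gene per 1000 counts of 16 Langerhans cell markers in each library, on a log axis. Alox5, Alox5ap, Ptgs1 and Hpgds overlap between imiquimod (orange) and Vaseline (blue), while Ptgs2 is at 42.2 and 29.8 with imiquimod and at 5.23 and 4.42 with Vaseline.

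Among genes well above background fitted alone, the fold changes were closer to 0 for the lower genes and further from it for Ptgs2. There Ptgs1 had -1.76 and Ptgs2 1.38, and edgeR quasi-likelihood called none of the 10, where it called 0% of the 14468 genes and 10.2% had an unadjusted p under 0.05. Of the 10 members, 1 was higher and 5 were lower at that unadjusted p. These genes were chosen by the mean that Vaseline 2 weighs on, which also sets the scaling of this fit. DESeq2 on those genes, a setting added after the data were seen, called 4 of 10 members lower, Alox5, Alox5ap, Ptgs1 and Hpgds, against 1.07% of genes. It called 1 of 10 higher, Ptgs2 (log2 fold change 1.34, adjusted p = 0.0320), against 0.684% of genes.

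**Figure D4:**
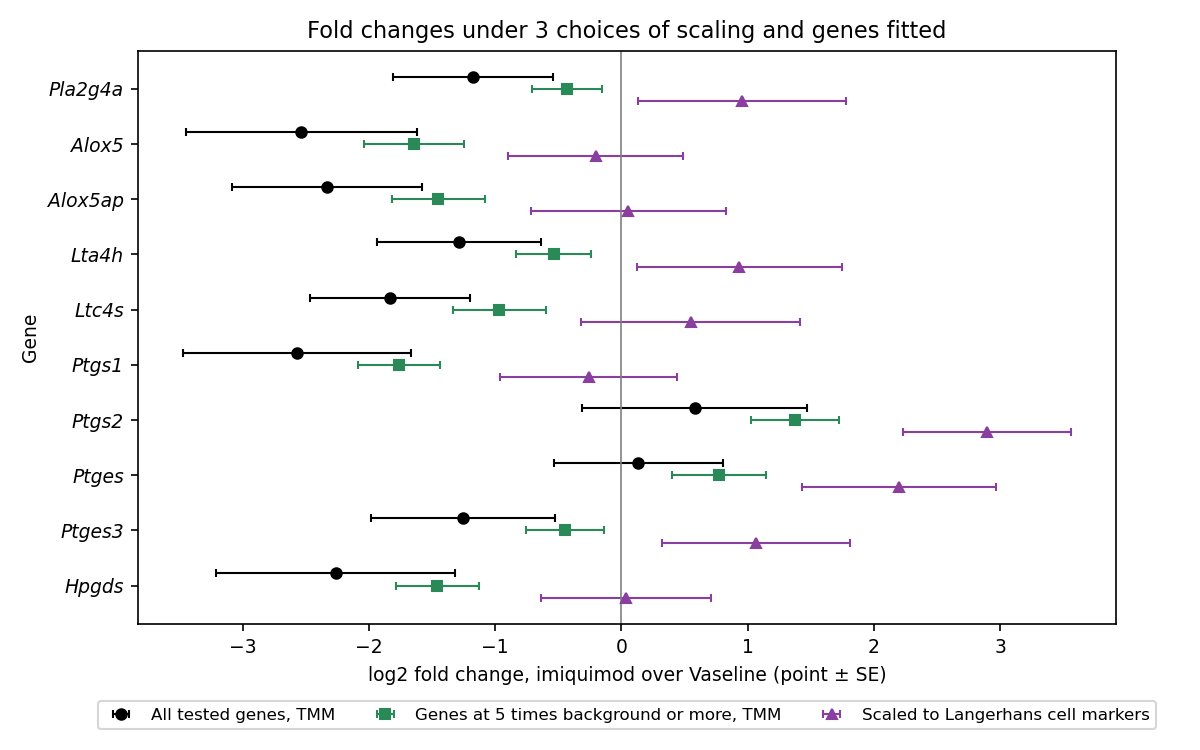
log2 fold change (imiquimod over Vaseline) with its SE for each gene by edgeR quasi-likelihood: all tested genes, genes at 5 times background or more, and library sizes set by Langerhans cell markers. Ptgs2 has 0.58, 1.38 and 2.90, and Ptgs1 has -2.57, -1.76 and -0.26. The median of all genes fitted is 0.41, 0.076 and 2.76 in the same order.

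Other cell types of skin also express these genes, and their markers were measured in the same libraries. Mast cells and basophils are known for Hpgds, Ltc4s and Alox5. Their 12 markers summed to 34.8 and 49.5 CPM with imiquimod, against 23.7 and 25.3 CPM with Vaseline. Kit made up most of each sum, with 23.7 and 26.7 CPM with imiquimod and 13.1 and 19.2 CPM with Vaseline. Of the 12, 11 had a mean ratio to background under 5. Fcer1a had no count in any library, and the mast cell protease Cpa3 had at most 1.54 CPM. All 11 tested markers had a positive log2 fold change (median 1.22), where 39.4% of all tested genes had a negative one. In both imiquimod libraries 8 of the 12 were higher, against 30.5% of all tested genes. Of tested genes well above background, 83.2% had a negative fold change and 5.45% were higher in both imiquimod libraries. Among tested genes nearer background, as most of these markers are, positive changes were thus more common than the shares of all tested genes show. The markers were not compared with genes at their own level. The part of mast cells and basophils in the levels of Hpgds, Ltc4s and Alox5 was not tested.

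Ptgs2 and Ptges are also known in activated keratinocytes and neutrophils. The 11 markers of activated keratinocytes summed to 1448 and 443 CPM with imiquimod, against 357 and 766 CPM with Vaseline, so the sums overlapped. Krt16, Krt17 and Krt6a made up most of them. Gene by gene, all 10 tested markers had a positive log2 fold change (median 0.97), where 39.4% of all tested genes had a negative one. In both imiquimod libraries 4 of the 11 were higher, against 30.5% of all tested genes and 5.45% of those well above background. By edgeR quasi-likelihood 3 were higher at an unadjusted p under 0.05, against 8.63% of all tested genes. After adjustment 0 passed as higher, against 0.0634%. Relative to 12 keratinocyte markers, Ptgs2 had 18.0 and 41.2 counts per 1000 marker counts with imiquimod, against 5.99 and 11.5 with Vaseline, and Ptges had 4.68 and 6.19 with imiquimod, against 2.70 and 2.62 with Vaseline. The 10 neutrophil markers summed to 74.6 and 270 CPM with imiquimod, against 16.8 and 49.1 CPM with Vaseline. Except in Vaseline 1, S100a8 and S100a9 made up most of these sums. With imiquimod S100a8 had 16.1 and 48.0 CPM and S100a9 39.1 and 151 CPM. Only 3 of the 10 had a mean ratio to background of 5 or more. As higher, 2 of the 10 passed, S100a8 among them, against 0.0634% of all tested genes. The part of activated keratinocytes and neutrophils in the levels of Ptgs2 and Ptges was not tested.

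Monocyte and macrophage markers, 11 genes, summed to 179 and 252 CPM with imiquimod and 291 and 387 CPM with Vaseline, and T cell markers, 10 genes, to 291 and 236 CPM with imiquimod and 488 and 895 CPM with Vaseline. Markers of fibroblasts and endothelium, 10 genes of which 1 passed as lower, summed to 61.3 and 113 CPM with imiquimod and 77.9 and 174 CPM with Vaseline, and 6 melanocyte markers to 34.8 and 36.5 CPM with imiquimod and 36.9 and 40.5 CPM with Vaseline. Mitochondrially encoded transcripts, a sign of RNA quality, went the same way as the lower members. Their sums were 3429 and 4299 CPM with imiquimod, against 7751 and 13244 CPM with Vaseline. In both imiquimod libraries 9 of 9 were lower, where 20.9% of all tested genes and 50.6% of those well above background were. The part of RNA quality in the lower levels was not tested.

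The rest of the pathway was read from 5 further lists, all genes of which were tested. One of them passed: Alox12e, an epidermal lipoxygenase, had 11.4 and 3.99 CPM in the imiquimod libraries, against 68.4 and 38.4 CPM in the Vaseline libraries. It fell by 2.86 on the log2 scale (SE 0.67, adjusted p = 0.0202 by edgeR quasi-likelihood), the 1 of 6 other lipoxygenases to pass. The call was lost with any 1 library left out, with adjusted p values from 0.0613 to 1.000, while its log2 fold change stayed between -3.81 and -2.21. In all it was lost in 11 of 16 alternatives, edgeR's older quasi-likelihood form among them (adjusted p = 0.514), and DESeq2 kept it (0.0029). Aloxe3, which makes epoxyalcohols for the skin barrier, had 74.8 and 16.3 CPM with imiquimod, against 22.2 and 22.7 CPM with Vaseline. Alox15 and Alox12, 2 further lipoxygenases, had log2 fold changes of -0.74 and 0.56, both under 5 times the background.

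None of the 15 other phospholipases passed, and their median log2 fold change was -0.22. Pla2g5, a secreted phospholipase A2, had 7.33 and 10.5 CPM with imiquimod, against 16.5 and 40.2 CPM with Vaseline, and Pla2g4f and Pla2g2f had log2 fold changes of -1.21 each. Pla2g4d had 1.26 at 1.80 times the background. Of 12 other terminal synthases and reductases none passed (median -0.30); Akr1c18, an aldo-keto reductase, had -2.08, and Mgst3, Cbr2 and Akr1b3 had -1.02, -1.03 and -0.91.

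Among 12 genes of breakdown and transport none passed (median -0.29), but 2 behaved much as the lower members did. Abcc4, an exporter of prostaglandins and leukotrienes, had 44.1 and 45.1 CPM with imiquimod, against 178 and 258 CPM with Vaseline, a log2 fold change of -2.29 (adjusted p = 0.211 by edgeR quasi-likelihood, 0.00263 by DESeq2). Dpep2, a dipeptidase that converts leukotriene D4 to E4, had 34.0 and 28.4 CPM with imiquimod, against 89.5 and 204 CPM with Vaseline, a log2 fold change of -2.24 (adjusted p = 0.188, and 0.00784 by DESeq2). Exons of other genes cover 44.0% of the exonic bases of Dpep2, and 40.4% on its own strand, which leaves the origin of its reads uncertain. Ptgr1, a reductase that inactivates both mediator classes, had -1.27, and Cyp4f18, which inactivates leukotriene B4, 1.55 at 3.20 times the background.

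Of 14 receptors none passed, and the median was 0.14. In all, 6 of the 14 lay above their controls in both imiquimod libraries, where 30.5% of all tested genes did, and 9 of the 14 had a mean ratio to background under 5. Of tested genes well above background 5.45% did, so the share among those nearer background was higher than 30.5%. The prostaglandin E2 receptor Ptger3 had 5.74 and 9.29 CPM with imiquimod, against 11.4 and 23.4 CPM with Vaseline. The leukotriene receptors Cysltr2 and Oxgr1, and the prostaglandin F receptor Ptgfr had log2 fold changes of 1.71, 1.48 and 1.26 at 1.41, 1.54 and 1.39 times the background.

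**Figure D5:**
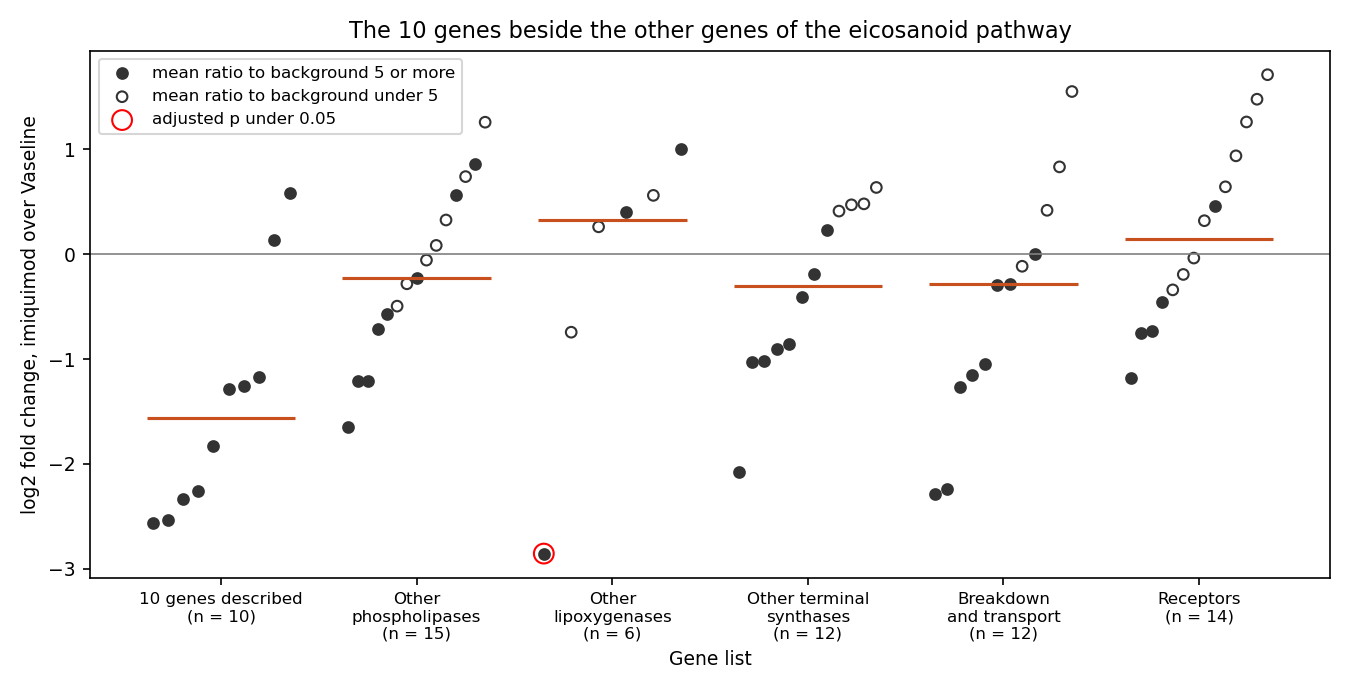
log2 fold change (imiquimod over Vaseline) of each gene by list, with list medians as orange lines, filled points for genes with a mean ratio to background of 5 or more and open points for the others. The 10 genes have a median of -1.56, and the red ring marks Alox12e at -2.86.

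The background differed between the libraries, at 0.533 and 1.29 CPM per exonic kilobase with imiquimod and 0.376 and 0.0938 with Vaseline before TMM scaling. Lta4h and Pla2g4a came nearest to it, at 3.63 and 3.67 times in imiquimod 2, and the part of the background in their fold changes was not tested. Ptgs2 was at 178 and 68.7 times the background with imiquimod and at 75.7 and 422 times with Vaseline. When each library was left out in turn, 8 members kept their negative sign and Ptgs2 its positive one, while Ptges changed sign without imiquimod 1 and without Vaseline 1. The sizes moved more. Without Vaseline 2 the log2 fold change was -1.05 for Ltc4s, -0.57 for Ptges3, -0.84 for Lta4h and -1.56 for Alox5ap, each closer to 0 than with all libraries. Lta4h had -1.98 without imiquimod 1 and -0.83 without imiquimod 2. The ranges were -3.07 to -1.98 for Alox5, -3.13 to -1.93 for Ptgs1, -2.81 to -1.65 for Hpgds and -1.55 to -0.90 for Pla2g4a.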

How the data were processed

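The deposited table holds whole-number counts per Ensembl gene, 1 column per library, not scaled to depth. GRCm38, Trimmomatic, HISAT2, SAMtools and StringTie are named per the submitters' processing notes; versions, annotation release, strand setting and treatment of multi-mapped reads are not given in the sources used here. Per the labels' protocols, libraries were built from 10 to 70 ng of RNA with a stranded pico-input kit.

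Genes passing filterByExpr (minimum count 10, total 15; 16048 left out) were fitted with TMM factors by edgeR quasi-likelihood (edgeR 4.0.16, R 4.3.3), imiquimod against Vaseline, two-sided, with Benjamini-Hochberg adjustment over 39439 genes. The first run used the older quasi-likelihood form, the installed default, and called 3 genes higher and 5 lower. The newer form, which called 25 and 54, was adopted after both counts were seen, to follow the earlier processing of these data; no member was called by either, and Alox12e was called only by the newer. SE was taken as |log2 fold change| divided by the root of F. DESeq2 1.42.0 and limma-voom (limma 3.58.1) were alternatives, beside other scalings, filters, a replicate block and each library left out. Exon lengths, positions and overlaps are from GENCODE vM21, which matched 55227 of 55487 genes, and promoter windows from RefSeq.

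The members and lists were chosen with earlier results of these data known. Genes named are the members, up to 4 of smallest p per other pathway list, and marker lists by their sums with the first gene. Cd74, H2-Aa, H2-Ab1, H2-Eb1, Mfge8, Fcer1a, Kit, Krt16, Krt17, S100a9 and the gene pairs and motifs were picked after values were seen. Replicates differed by more than sampling noise (chi-square per gene 88.1 for imiquimod and 95.1 for Vaseline), so each counts once.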

Additional observations from a re-analysis of the deposited data

How the results depend on the processing

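No member was called by edgeR quasi-likelihood on all tested genes (6 lower and 0 higher at an unadjusted p under 0.05). Library sizes set by Langerhans cell markers called 2 higher, DESeq2 5 lower, and DESeq2 on genes at 5 times background or more, chosen after the data were seen, 1 higher and 4 lower; in the other 13 alternatives run, 0 were called. Over all genes, 25 were higher and 54 lower. These counts were 14 lower with RLE factors, 41 higher with upper-quartile factors, 8 higher and 5 lower on library totals, 11811 and 0 with the marker scaling, 6 and 667 by DESeq2, 41 and 136 by limma-voom, and 124 lower with at least 10 counts in every library. They were 0 and 0 by edgeR with no filter (3185 and 1996 at an unadjusted p under 0.05), 0 and 0 among genes at 5 times background or more (780 and 693 unadjusted), where DESeq2 gave 99 and 155, and 3 and 5 with edgeR's older quasi-likelihood form, also added later. With 1 library left out they ran from 8 to 2958 higher and from 0 to 317 lower, namely 2958 higher and 317 lower once Vaseline 1 was dropped, 28 and 17 for Vaseline 2, 15 and 6 for imiquimod 1, and 8 and 0 for imiquimod 2; the lone library was then assumed to vary like the other group. The cause was not tested.

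With the replicate number as a block, 1 gene was higher and 0 lower (1858 and 397 at an unadjusted p under 0.05), and no member passed. Same-numbered libraries deviated oppositely (correlation -0.43 over 39439 genes), and nothing states that they share an animal or day.

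Ptges had -0.10 with RLE factors, -0.084 by DESeq2, -0.050 with the block, -0.04 without Vaseline 1 and -0.90 without imiquimod 1, and ran up to 0.73 with 1 library left out. Aloxe3 ran from -0.54 without imiquimod 1 to 1.74 without imiquimod 2, and Alox15, at under 5 times background, 0.14 on library totals. With the marker scaling, which moves the median of all genes to 2.76, signs turned for Ltc4s (0.55), Alox5ap (0.056), Lta4h (0.93), Ptges3 (1.07), Hpgds (0.039) and Pla2g4a (0.95), and for Pla2g5 (0.79), Pla2g4f (0.96), Pla2g2f (0.76), Alox15 (1.59), Akr1c18 (0.15), Cbr2 (1.21), Mgst3 (1.09), Akr1b3 (1.33), Dpep2 (0.12), Ptgr1 (0.89) and Ptger3 (1.23). Depth was lowest in imiquimod 1, with 14902782 counts.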
